A study of Arabidopsis thaliana with 4 samples.

Results

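Expansins are small secreted proteins that let plant cell walls stretch. The 9 expansin transcripts described here were followed in the rosettes of Columbia plants of Arabidopsis thaliana, with and without nymphs of Bemisia tabaci type B, the silverleaf whitefly, which draws phloem sap through its stylets. They are the probe sets, out of 22746 on the array that are not controls, whose single gene symbol starts with EXPA, EXPB, EXLA or EXLB followed by a number and whose mean log2(signal + 16) over the 4 arrays lay at or above the 40th percentile. In all 18 probe sets carried such a symbol, and the other 9 were below that level. RefSeq lists 36 Arabidopsis expansin genes by symbol, so 18 genes of the family were not analysed here by name.

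The study held 2 groups of wild-type plants, with no transgene or mutation named in the labels, grown under 8 h of light per day. The records give 2 growth chambers for every array, and the part of the chambers in the results was not tested. In the infested group 100 adult whiteflies were released on each plant at 21 days of age, the adults were removed after 7 days, and rosette leaves were taken after 28 days, when the plants were 7 weeks old and nymphs had developed on them. The uninfested group gave leaves of matched development from plants that received no whiteflies. Each group was measured on 2 Affymetrix ATH1 arrays, and the RNA on an array was a pool of 20 plants from 2 replicate experiments, so that p-values measure the spread between pools and differences between single plants are not seen. Precision is limited throughout by the number of arrays.

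Expansins loosen walls without cutting their polymers. They act best at acid pH and are thought to slip apart the contacts between cellulose and the xyloglucans or other matrix chains that tie it, so that turgor can drive the wall to yield. Alpha-expansins (EXPA) are the classical agents of acid-induced growth in leaves, stems and roots. Beta-expansins (EXPB) include the pollen allergens of grasses and also leaf and stem members. The expansin-like A and B proteins (EXLA and EXLB) share the fold of the family, and no wall-loosening activity is established for them. In leaves, expansins are known for cell enlargement during growth and for softening walls at other stages.

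All of the values below are MAS 5.0 signals as the authors deposited them, in arbitrary units on a linear scale, with each array scaled by the authors to the same trimmed mean. The median signal was between 185.25 and 205.2 on the 4 arrays, and the highest of 27 bacterial control probe sets, which are taken here as absent transcripts because all of them were dim, read between 41.7 and 52.1. Each of the 9 expansin probe sets read above those controls on every array. Infested 2 stood apart from the other arrays: 27 tested probe sets on it exceeded all 3 other signals by 8-fold or more and 16 fell short of all 3 by 8-fold or more, against 0 and at most 1 on each other array. A control for 25S ribosomal RNA read 94.6 and 133.8 in uninfested and 156.9 and 302.8 in infested leaves. The 4 ratios of 3' to 5' signal, which are read as signs of RNA integrity, did not move together. One actin ratio was 2.70 and 3.88 in uninfested and 5.70 and 6.56 in infested leaves, and the other was 1.43 and 1.42 against 1.31 and 1.43. The GAPDH ratio was 1.17 and 1.15 against 0.975 and 1.02, and the ubiquitin ratio was 2.77 and 2.34 against 2.08 and 1.87, so both were lower in infested leaves. The part of ribosomal RNA and of RNA integrity in the results was not tested. Of the leaf mesophyll markers, RCA, the Rubisco activase gene, read between 17614 and 21392 on the 4 arrays. PRK, the phosphoribulokinase gene of the Calvin cycle, read 15833.6 and 16836.4 in uninfested and 11696.5 and 8388.1 in infested leaves.

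The comparison asked which expansin transcripts differed between leaves with developing nymphs and leaves without. Signals of 7 of the 9 were lower in infested leaves by value and those of 2 were higher. EXPB1 and EXPA4 fell, by limma with Benjamini-Hochberg adjustment over all 13648 probe sets tested and a threshold of 0.05, and 0 rose. Over all probe sets tested, 2.54% were called lower and 2.83% higher, or 347 and 386 probe sets, a split that became 589 and 342 when arrays were scaled to a common median. Arrays carry a replicate number, 1 or 2, in their titles. Each experiment held both infested and control plants, per the series text, but no label states that equal numbers mark the same experiments, so the pairing is an assumption on which every value given with the block rests. With this number as a block in the fit, 6 of the 9 passed as lower and 0 as higher, against 10.3% and 9.19% of all probe sets. The median log2 change of the 9 was -1.02, and that of all tested probe sets was 0.037. One member, EXPA9, lay above the filter only through its infested signals, so these counts describe the probe sets that passed and not the family. In a fit that leaves out an array, the spread comes from the complete pair of the other group and the lone array is assumed to vary like it. Without infested 1, 18.2% of all probe sets passed as lower and 15.1% as higher, and without infested 2, 5.06% and 4.67%, so that a call in these fits is weak support. In pooled leaf RNA, fewer cells of a type that expresses a gene and less of its RNA per cell cannot be told apart.

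**Figure D1:**
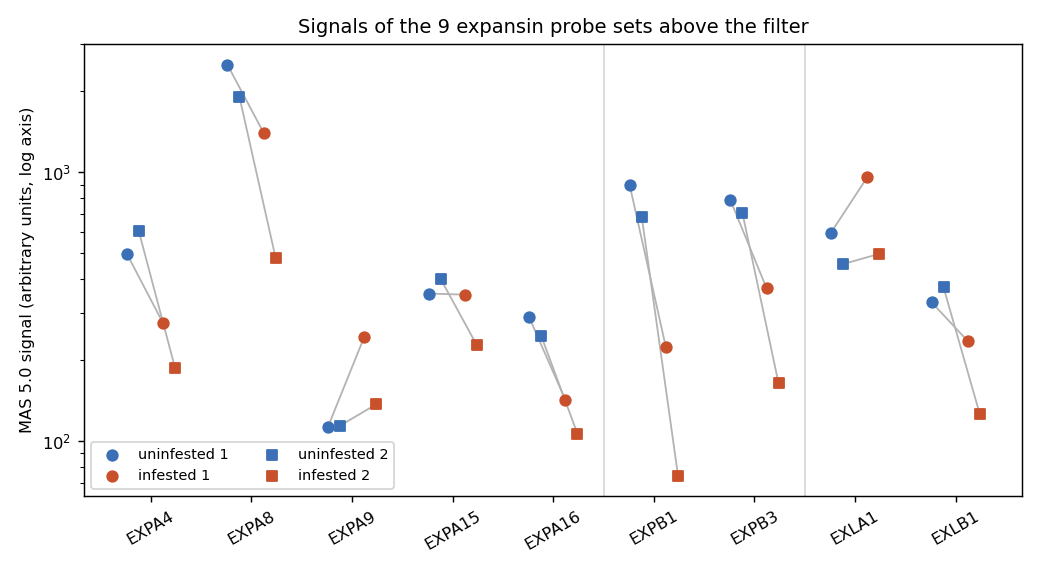
MAS 5.0 signal on a log axis (arbitrary units) of the 9 expansin probe sets on each array, with uninfested arrays in blue, infested arrays in orange, circles for number 1, squares for number 2 and a line joining arrays of the same number. The signals of EXPB1 are 894.5 and 681.3 without and 223.1 and 74.4 with infestation, and EXPA9 and EXLA1 are the members whose lines both go up. Heights of different probe sets are not comparable as amounts of RNA.

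Among the alpha-expansins, EXPA4 (AT2G39700) read 498.7 and 604.1 in uninfested leaves and 275.1 and 187.3 in infested leaves. Both infested arrays were below both uninfested ones. The means were 551.4 ± 74.5 (SD, n = 2) and 231.2 ± 62.1, which is 2.32-fold lower on the log2(signal + 16) scale, a scale that understates the change of dim probe sets. Its log2 change of -1.22 ± 0.23 (SE) had a limma adjusted p of 0.0484, or 0.00967 with the replicate block. Its call was lost without uninfested 1 (adjusted p = 0.252), without uninfested 2 (0.271), with no variance trend (0.0536), and with every probe set on the array tested (0.0947). In the fits without an uninfested array 0 probe sets of any kind were called.

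EXPA8 (AT2G40610) read 2519.3 and 1911.1 in uninfested and 1405.7 and 480.6 in infested leaves. The groups did not overlap, and the infested arrays differed 2.92-fold from each other. On the log2 scale the change was -1.40 ± 0.49 (SE), with a 95% interval, not adjusted for the number of probe sets, from -2.61 to -0.18. The adjusted p was 0.142 by limma and 0.00836 with the block. Within the same-numbered pairs the signal was 1.79-fold lower in the first and 3.98-fold lower in the second, so both pairs moved the same way by unequal amounts. Without infested 1 the log2 change was -2.15, and without infested 2 it was -0.64.

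EXPA16 (AT3G55500) read 289.1 and 246.5 in uninfested and 142.4 and 106.6 in infested leaves. It had the most even change of the 9 between the pairs, 2.03-fold lower in the first and 2.31-fold lower in the second. The log2 change was -1.02 ± 0.22 (SE), with an adjusted p of 0.0564 by limma and of 0.0156 with the block. It passed without the block when arrays were scaled to a common median (adjusted p = 0.0397) or quantile normalized (0.0449). The log2 change was -1.21 without infested 1 and -0.84 without infested 2.

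EXPA15 (AT2G03090) read 354.0 and 401.6 in uninfested and 350.7 and 227.5 in infested leaves. The lowest uninfested signal was 1.01-fold the highest infested one, so the groups all but touch. A log2 change of -0.40 ± 0.24 (SE), with a 95% interval from -0.995 to 0.20, did not pass with or without the block (adjusted p = 0.278 and 0.335). Its 2 pairs differed, with log2 changes of -0.013 and -0.78, and its change was -0.69 without infested 1 and -0.10 without infested 2.

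EXPA9 (AT5G02260) went the other way by value, with 112.9 and 114.1 in uninfested and 243.6 and 137.0 in infested leaves. Both infested signals were above both uninfested ones, and the uninfested signals were nearly equal. Its log2 change was 0.62 ± 0.29 (SE), with a 95% interval from -0.11 to 1.35, and it did not pass (adjusted p = 0.231, or 0.149 with the block). Without infested 2 the change was 1.00, and without infested 1 it was 0.24. EXPA9 lay above the filter only through its infested signals, so that it was tested at all depends on the group where it was high. EXPA9 was also the member just inside the filter, at the 44.2 percentile of mean level, while the expansin just outside was EXPB5 at 36.4. EXPB5 had signals of 93.3 and 78.6 in uninfested and 105.3 and 107.1 in infested leaves.

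Both beta-expansins above the filter were lower in infested leaves by value, and EXPB1 (AT2G20750) fell the most of the 9 members. It read 894.5 and 681.3 in uninfested and 223.1 and 74.4 in infested leaves. The signal was at least 3.05-fold lower in each of the 4 ratios of an uninfested to an infested array, and EXPB1 was the 1 member at least 2-fold lower in all 4, as were 1.72% of all probe sets tested. Its log2 change was -2.44 ± 0.46 (SE), with a 95% interval from -3.58 to -1.30 and an adjusted p of 0.0467, or 0.0014 with the block. The call of EXPB1 was lost without uninfested 1 (adjusted p = 0.257), without uninfested 2 (0.216), with every probe set tested (0.0953), with no variance trend (0.0523) and with a pseudocount of 1 (0.0501).

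EXPB3 (AT4G28250) read 790.1 and 707.3 in uninfested and 370.9 and 163.8 in infested leaves. The groups did not overlap, and the infested arrays were 2.13-fold and 4.32-fold below the uninfested arrays of the same number. A log2 change of -1.53 ± 0.37 (SE) had an adjusted p of 0.0707 by limma and of 0.00478 with the block. It passed without the block under median scaling (adjusted p = 0.0497). The log2 change was -2.09 without infested 1 and -0.98 without infested 2. EXPB1 and EXPB3 thus both passed with the block, as did EXPA4, EXPA8 and EXPA16 of the 5 alpha-expansins.

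The expansin-like members differed in direction by value, and the difference between them was not tested. EXLB1 (AT4G17030) read 328.8 and 372.9 in uninfested and 235.6 and 126.0 in infested leaves, with no overlap. Its log2 change was -0.95 ± 0.30 (SE), with an adjusted p of 0.116 by limma, or 0.0399 with the block. The change was -1.37 without infested 1 and -0.54 without infested 2.

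EXLA1 (AT3G45970) read 595.6 and 455.8 in uninfested and 957.6 and 497.4 in infested leaves. It was the 1 member whose groups overlapped, since infested 2 lay between the uninfested arrays. The log2 change was 0.40 ± 0.33 (SE), with a 95% interval from -0.43 to 1.23 and an adjusted p of 0.479, or 0.211 with the block. Its direction depended on infested 1: without that array the change was -0.065, and without infested 2 it was 0.86.

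**Figure D2:**
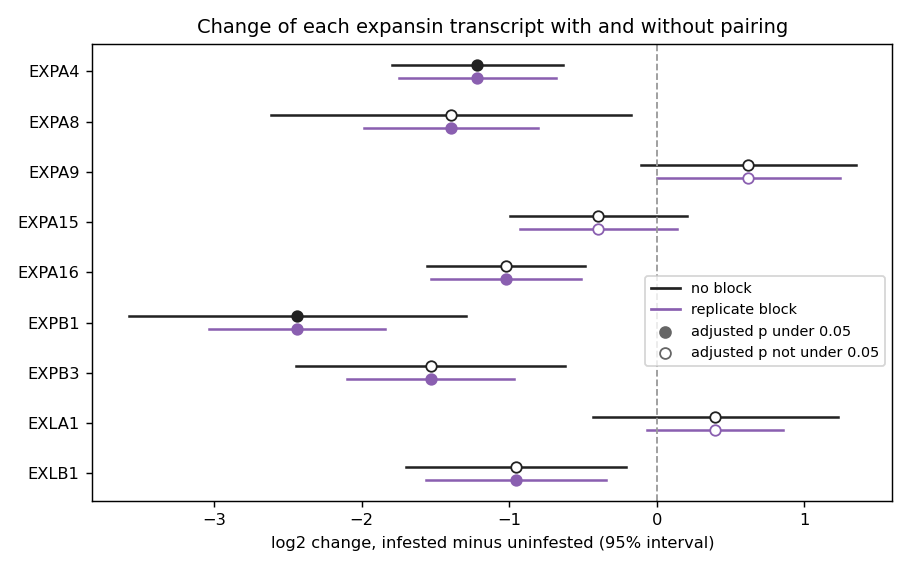
The log2 change of each expansin transcript, infested minus uninfested, on the log2(signal + 16) scale, with the unadjusted 95% interval from limma without a block (black) and with the shared number as a block (purple). Filled points have an adjusted p under 0.05: 2 without the block and 6 with it, all of them lower in infested leaves.

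The groups of arrays did not overlap for 8 of the 9 members, 7 of them lower and 1 higher in infested leaves. Such a lack of overlap was found for 28.1% of all tested probe sets in the lower and 33.8% in the higher direction, so it is common on these arrays. The signal of each of the 9 was also lower on infested 2 than on infested 1, by 1.34-fold for EXPA16 to 3.00-fold for EXPB1. So were 58.4% of all tested probe sets, and 16 of the 20 tested in the wall and growth lists described below. GH9 and CSL each had 5 of 6 lower, and the guard cell and mesophyll markers 2 of 2 each, so the difference is not particular to expansins. After scaling the arrays to a common median, all 9 were still lower on infested 2, against 43.3% of tested probe sets, with a lowest ratio of 1.20. Within same-numbered pairs the median log2 change of the 9 was -0.82 in the first and -1.45 in the second pair, and over all tested probe sets it was 0.076 and -0.015. EXPA9 and EXLA1, the members higher by value, took part in this: their log2 changes were 1.01 and 0.67 in the first pair and 0.23 and 0.12 in the second. Infested 2 is also the array that stood apart above, and the part of that in the shared difference was not tested.

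**Figure D3:**
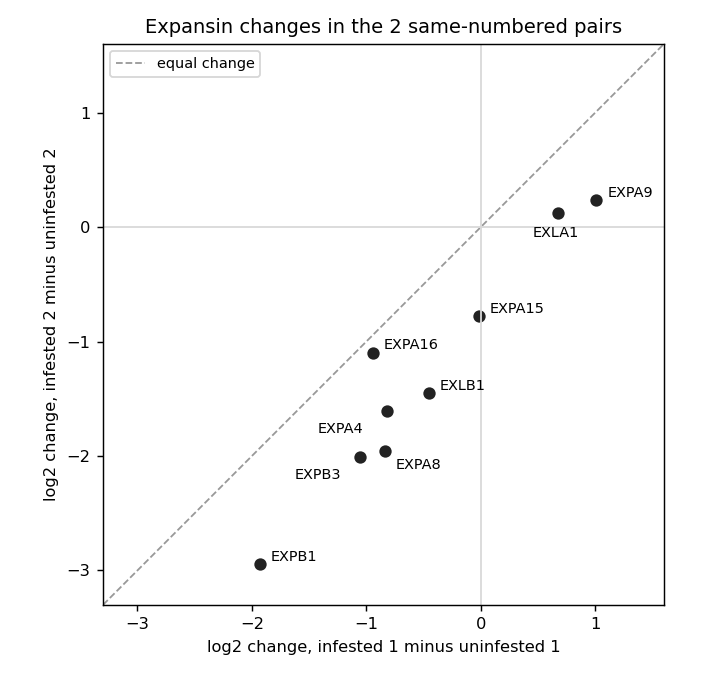
Log2 change of each expansin on the log2(signal + 16) scale in the first pair of same-numbered arrays (x axis) and in the second (y axis), 1 point per transcript, with a dashed line where both are equal. All 9 points lie below the line, from EXPA9 at 1.01 and 0.23 to EXPB1 at -1.93 and -2.95.

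The fits with and without the block differ in their standard errors. The standard error of the log2 change went from 0.49 to 0.26 for EXPA8, from 0.46 to 0.26 for EXPB1 and from 0.37 to 0.25 for EXPB3, and it was smaller with the block for 8 of the 9. The exception was EXPA16, at 0.22 in both fits. The blocked fit has 1 residual degree of freedom and leans on the variance of other probe sets. With every probe set tested, 2 of the 9 passed with the block, EXPB1 (adjusted p = 0.0228) and EXPB3 (0.0395), where 2.83% of all 22746 probe sets passed as lower. Without the block 0 of the 9 and 0% of all probe sets passed (2453 higher and 2203 lower at an unadjusted p under 0.05).

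The 9 expansin probe sets below the filter were not part of the main test. With every probe set tested, limma called 0 of them (adjusted p from 0.179 to 0.981), and 0 with the block. At an unadjusted p under 0.05 there were 2 without the block, EXPA18 and EXLA2, against 2453 higher and 2203 lower of all 22746 probe sets. Of the 9 below the filter, EXPA7 and EXPA18 are known for root hair growth. EXPA7 read 45.1 and 63.9 in uninfested and 61.4 and 82.0 in infested leaves, with overlapping groups. It was above the absent bacterial controls on 3 arrays, all but uninfested 1. EXPA18 was above those controls on every array, with 124.5 and 108.0 in uninfested and 66.9 and 58.0 in infested leaves, a log2 difference of -0.75 (adjusted p = 0.179 with every probe set tested).

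EXLA2 is known from Arabidopsis mutants that resist the grey mould Botrytis cinerea better when they lack it. It read 62.1 and 100.1 in uninfested leaves, above the absent controls on both arrays, and 38.0 and 8.0 in infested leaves, below them on both. Its adjusted p was 0.194 with every probe set tested, and no size of change is given because the infested signals are no higher than those of absent transcripts. EXPB2 read 89.1 and 99.6 against 88.5 and 76.1, a narrow spread above the controls on all 4 arrays. EXPB5 was also above them on all 4, with a log2 difference of 0.27 (adjusted p = 0.569). Of the 9 dim members, EXPA18, EXLA2 and EXPB2 were lower and EXPB5 was higher with no overlap between groups, which is 3 and 1 of 9, against 18.8% lower and 22.6% higher of all probe sets below the filter.

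The remaining dim members were at the level of absent transcripts. EXPA21, EXPA24 and EXLA3 were below the highest absent control on every array, with signals from 3.5 to 37.5. EXPA20 was above it on 1 array, uninfested 2, with 61.7 there and 11.4, 50.5 and 11.9 on uninfested 1, infested 1 and infested 2. In the annotation EXPA21 and EXPA24 flank a run of neighbouring expansin genes, EXPA22, EXPA23, EXP26 and EXPA25. That run is read by 2 probe sets that each match 2 of these genes and so are no members, with signals of 18.6 to 25.8 for the pair EXP26 and EXPA22 and of 6.6 to 20.1 for EXPA25 and EXPA23. EXLA1 and EXLA3 also lie next to each other, with only a transfer RNA gene between them.

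**Figure D4:**
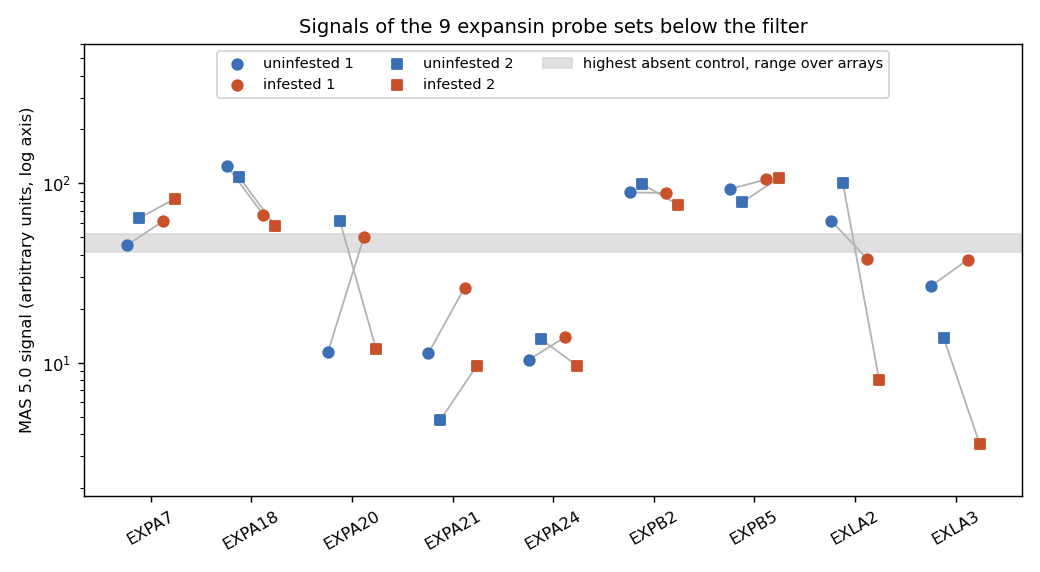
MAS 5.0 signal on a log axis (arbitrary units) of the 9 expansin probe sets below the filter, drawn as for the members above it, with a grey band for the highest absent bacterial control, 41.7 to 52.1 over the 4 arrays. EXPA18, EXPB2 and EXPB5 lie above the band on every array, and EXLA2 lies above it in uninfested and below it in infested leaves.

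Wall enlargement also needs enzymes that cut, rejoin and make the matrix polymers, and 15 lists of such genes and of growth regulators were compared with the expansins. Named probe sets existed for 7 of the 15, and 20 probe sets in 6 lists were tested. Of these 0 were called lower and 0 higher by limma without the block. At an unadjusted p under 0.05 there were 10 and 1, and the share of all tested probe sets at that level is not given here. With the block 8 of the 20 passed as lower and 1 as higher, against 10.3% and 9.19% of all tested probe sets. Groups did not overlap for 12 of the 20 in the lower and for 3 in the higher direction, against 28.1% and 33.8%. XTH16 and GH9B5 lay above the filter only through their uninfested signals, so these counts and the medians describe the probe sets that passed and not the families. The median log2 change of the 20 was -0.66, against 0.037 for all tested probe sets. Plasma membrane proton pumps, which acidify the wall, and aquaporins were among the lists with 0 named probe sets and were not analysed here.

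Endo-1,4-beta-glucanases of family GH9, which trim cellulose and related glucans, had 6 tested members. All were lower by value, the median log2 change was -0.83, and 3 passed with the block. GH9B8 read 489.2 and 450.4 in uninfested and 214.4 and 94.6 in infested leaves (log2 change -1.60, limma adjusted p = 0.0601, or 0.00482 with the block). GH9C2 read 3025.3 and 2741.7 against 1599.6 and 463.1 (-1.72, adjusted p = 0.118, or 0.00932 with the block). As in EXPA8, its infested arrays were far apart. GH9B7, the other of the 3, had a log2 change of -0.94, and GH9B5, tested only through its uninfested signals, had -0.71.

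Xyloglucan endotransglucosylase/hydrolases (XTH) cut and rejoin the xyloglucan chains. XTH16, which passed the filter only through the group where it was high, read 272.5 and 184.9 against 104.0 and 53.3 (log2 change -1.40, adjusted p = 0.0740, or 0.00699 with the block). XTH32 had -0.45, and EXGT-A3, of the same family, had 0.24 with signals of 3445.6 and 3520.6 against 4068.4 and 4150.0. The family was thus mixed by value, and XTH16 was the 1 of 3 past the test with the block.

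Many of the cellulose synthase-like genes (CSL) make the backbones of hemicelluloses. Of 6 tested, 3 passed as lower and 1 as higher with the block. CSLC5 and CSLC04, of the subfamily that makes the glucan backbone of xyloglucan, had log2 changes of -1.07 and -0.69 (adjusted p with the block = 0.0156 and 0.0353), and CSLA03, of the glucomannan synthases, had -0.89 (0.0216). CSLC6, of the same subfamily, had -0.31 with overlapping groups (adjusted p = 0.402, and 0.369 with the block). CSLC5 and CSLC6 lie outside the 4 members with the smallest p and were chosen after their values were seen. ATCSLC08, of this subfamily by its symbol and among the 4, had -0.74 (adjusted p = 0.112, and 0.0614 with the block). CSLD2, which is known from tip growth of root hairs, went up from 459.1 and 522.9 to 784.0 and 851.8 by value, which is 0.72 on the log2 scale (limma adjusted p = 0.0680, and 0.0250 with the block). Its infested arrays differed little, and infested 2 was the higher of them.

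In the other lists with tested members, COB, which orients cellulose microfibrils, had a log2 change of -0.39 with overlapping groups, and the pectin methylesterase genes PME61 and PMEPCRF had -0.63 and 0.20. Of the Aux/IAA repressors of auxin response, IAA29 had -0.77 (adjusted p = 0.159, or 0.0197 with the block) and IAA18 had 0.16. Markers of cell types were checked beside these groups. Of 6 guard cell markers 2 had a named probe set, and their summed signal was 1994.6 to 2094.1 in uninfested and 1018.1 to 1193.7 in infested leaves. AT1G22690, the brighter of the pair, made up most of this sum and fell with a log2 change of -0.98 (adjusted p = 0.0411). FMA read 253.4 and 283.5 against 256.1 and 163.9, so its groups overlapped. Its log2 change was -0.36 (adjusted p = 0.386, or 0.344 with the block). Of 5 mesophyll markers 2 were named, and RCA had -0.16 (adjusted p = 0.427, or 0.508 with the block) and PRK -0.72 (0.0807, or 0.0237 with the block), while 0 of the listed phloem, xylem, trichome and dividing cell markers had a named probe set. The part of guard cells or of other cell types in the expansin changes was not tested.

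**Figure D5:**
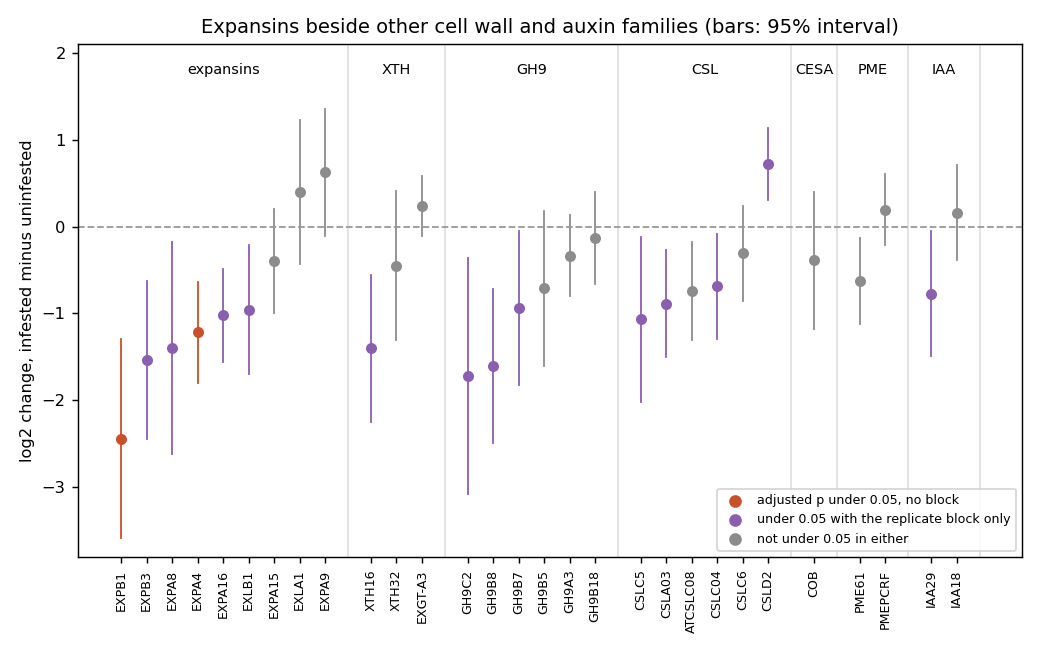
Log2 change, infested minus uninfested, on the log2(signal + 16) scale with its unadjusted 95% interval, for the 9 expansins and 20 tested genes of other wall and auxin families, ordered by size within each family. EXPB1 and EXPA4 (orange) passed without the block, purple points passed with the block only, and CSLD2 at 0.72 is the 1 purple point above 0.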

How the data were processed

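RNA of 2 uninfested and 2 infested leaf pools was hybridized to Affymetrix ATH1 arrays, 1 colour each, grouped by the sample titles. The authors deposited the signal intensity of each probe set from MAS 5.0, linear and with standard settings, per the series text and the submitters' processing notes, which name MAS5 with no version. With 2% trimmed from either end, the mean was 500.0 on every array. Detection calls were not used here.

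Signals of all but the 64 control probe sets were transformed to log2(signal + 16) without renormalizing, and 9098 of them below the 40th percentile of the mean (a signal of about 116) were not tested. The other 13648 were fitted with limma 3.58.1 in R 4.3.3 (lmFit, eBayes with a variance trend, 2 residual and 3.66 prior degrees of freedom) with calls at an adjusted p under 0.05 (Benjamini-Hochberg). The code of the fit was run on simulated data with planted changes and the same spread for every probe set and array. That spread was taken from the uninfested pair, so the run bears on no call made here. The smallest two-sided p of an exact permutation test of a gene, 2 arrays against 2, is 0.333, so none is used.

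Genes were named through the platform annotation, with 1 gene for 13513 probe sets, several for 503 and none for 8730, and through RefSeq (assembly TAIR10.1). Sequences were not used here, and of gene positions only the order of genes in RefSeq was used, to name neighbours. The members, the gene lists and the tests were chosen with earlier results of these data known. All 9 tested expansins are named with their signals, and of each list at most the 4 members with the smallest p. The exceptions are CSLC5 and CSLC6, which were added after their values were seen.

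Same-numbered arrays were taken as pairs, because the experiments behind the pools each held infested and control plants, per the series text. That equal numbers in the titles mark the same experiments is an assumption. Over tested probe sets, the correlation of their deviations from the group means was 0.264, and probe sets are no independent replicates. The blocked fit has 1 residual and 7.26 prior degrees of freedom. Alternatives were pseudocounts of 1 and 64, no filter or the 60th percentile, median scaling, quantile normalization, no variance trend, the block, and leaving out each array. The block with other scalings or no filter was added after seeing the data.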

Additional observations from a re-analysis of the deposited data

Results flagged for a closer look

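The signal for 25S ribosomal RNA, read by a control probe set that enters none of the comparisons, had a mean 2.01 times that of uninfested leaves in infested leaves. It is given because it lies outside the measurement and above its uninfested level. It read 94.6 and 133.8 without infestation, 156.9 on infested 1 and 302.8 on infested 2, the array on which each of the 9 expansins was lower than on infested 1.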

How the results depend on the processing

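Of 132 values of single expansins under other settings, 96 kept direction and side of the threshold, 25 gained a call, 10 lost one and 1 reversed, EXLA1, which ran from -0.065 without infested 1 to 0.86 without infested 2. Calls lower among the 9 were 2 in the main analysis, 4 with median scaling and 3 with quantile normalization. They were 1 with a pseudocount of 1, 0 with no variance trend and 0 with no filter. With the replicate block they were 6, also 6 under median scaling or quantile normalization, and 2 with no filter. Leaving out 1 array gave 0 to 7 calls lower and 0 to 2 higher, and a median log2 change from -1.37 to -0.64. In the companion lists, calls lower went from 0 to 1 with median scaling, 1 with quantile normalization, 8 with the block and 0 to 13 without 1 array, and calls higher to 1 with the block and 0 to 1 without 1 array. Over all probe sets, 386 were higher and 347 lower. The counts were 0 and 0 with no filter (2453 and 2203 at an unadjusted p under 0.05 by limma) and 1254 and 1403 with the block. Calls lower were 589 with median scaling and 199 with no variance trend. Without 1 array they ran from 0 to 2065 higher and 0 to 2487 lower. The lower share thus rose with median scaling, to 589 against 342 higher. Without an uninfested array the spread comes from the infested pair alone, which differed more, and without an infested array from the uninfested pair alone. The cause of the other changes was not tested. The call of EXPB1 with an adjusted p of 0.0467 and that of EXPA4 with 0.0484 lie close to the threshold.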
